A study of Mus musculus with 22 samples.

Results

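EPCAM- tumour cells were compared with EPCAM+ tumour cells of 4 CRISPR/Cas9 knockout lines of the mouse, Pitx1KO, Klf5KO, Nfatc1KO and Creb3l1KO, all at day 8. Every day 8 library of a knockout line was taken, which gave 8 EPCAM- and 8 EPCAM+ libraries, 16 of the 22 libraries of the series. Each EPCAM- library was paired with the EPCAM+ library of the same line and sample number, which gave 8 pairs, 2 in each line. The control line entered only where it is named, with 4 libraries at day 8, and its 2 libraries at day 0 were not used here.

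All groups came from primary tumour cell lines that share their engineered alleles, among them Lgr5CreER, a tamoxifen-activated Cre recombinase driven from the Lgr5 locus, p53fl/fl and a homozygous Rosa26-YFP reporter. Living single mCherry+ YFP+ cells were stained with an antibody to EPCAM and sorted by flow cytometry into the EPCAM- and the EPCAM+ fraction. The labels name no treatment that begins at day 0. They do not say whether the 2 samples of a group were separate cultures or separate knockout clones, so p-values measure only the spread between these samples, which may be technical.

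EPCAM is an adhesion glycoprotein of epithelial cells. In epithelial-to-mesenchymal transition (EMT) carcinoma cells lose the junctions and apical polarity of an epithelium and gain mesenchymal cytoskeleton and matrix, and transcription factors of the Zeb, Snail and Twist families repress epithelial genes such as Cdh1 through E-box sites in their promoters. Factors such as the Ovol and Grhl proteins and the Esrp splicing regulators maintain the epithelial programme.

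The values are the deposited normalised counts, read here as scores scaled to a common total, 20007331 to 20014236 units per library here. In the 16 libraries 1 read was worth 2.02 to 3.30 units, and 6054932 to 9882698 reads lay in genes, so a value under 10 rests on a few reads. The targeted gene Pitx1 measured 1205 to 1627 units in the 4 libraries of its own line and 3956 to 5581 in the 12 of the other knockout lines, and Nfatc1 182 to 249 in its own line, against 545 to 944 in the others. Klf5 mRNA was no lower in its own line, at 1961 to 2247 units against 1255 to 2117 in the others, so its mRNA does not check that label. Creb3l1 was at 0 to 6 units in its own line and 0 to 8 in the other knockout lines, and at 137 and 26 units in EPCAM- cells of the control line against 0 and 0 in its EPCAM+ cells, so it does not tell the Creb3l1KO line from the other knockout lines. Between the fractions Pitx1, Klf5 and Nfatc1 differed by 0.04, -0.06 and 0.11 on the log2 scale and were not called.

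The sort marker and its 2 companion markers were read first. Epcam had 90 to 735 units in the EPCAM- libraries (median 381.5), against 3702 to 7320 in the EPCAM+ libraries (median 5546.5). This gene chose the fractions, so its difference (log2 -4.00) is a check of the sort and not a result, and the EPCAM- libraries kept 7.40% of the mean EPCAM+ level. Cdh1, which encodes E-cadherin, the adherens junction receptor (chr8:106603351-106670246, GRCm38, plus strand), had 130 to 523 units in the EPCAM- libraries (median 254.5), against 1925 to 7473 in the EPCAM+ libraries (median 2334.5). It fell by 3.56 on the log2 scale (SE 0.16, limma adjusted p = 1.31e-07). Vim, the intermediate filament vimentin of mesenchymal cells (chr2:13573927-13582826, GRCm38, plus strand), had 30486 to 52675 units in the EPCAM- libraries (median 45640) and 5163 to 16658 in the EPCAM+ libraries (median 9586). It rose by 2.22 (SE 0.18, limma adjusted p = 7.90e-05). Neither gene overlapped between the fractions, Cdh1 being lower and Vim higher in EPCAM- cells. In bulk RNA a lower share of cells that carry a transcript and less of it in each cell cannot be told apart.

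**Figure D1:**
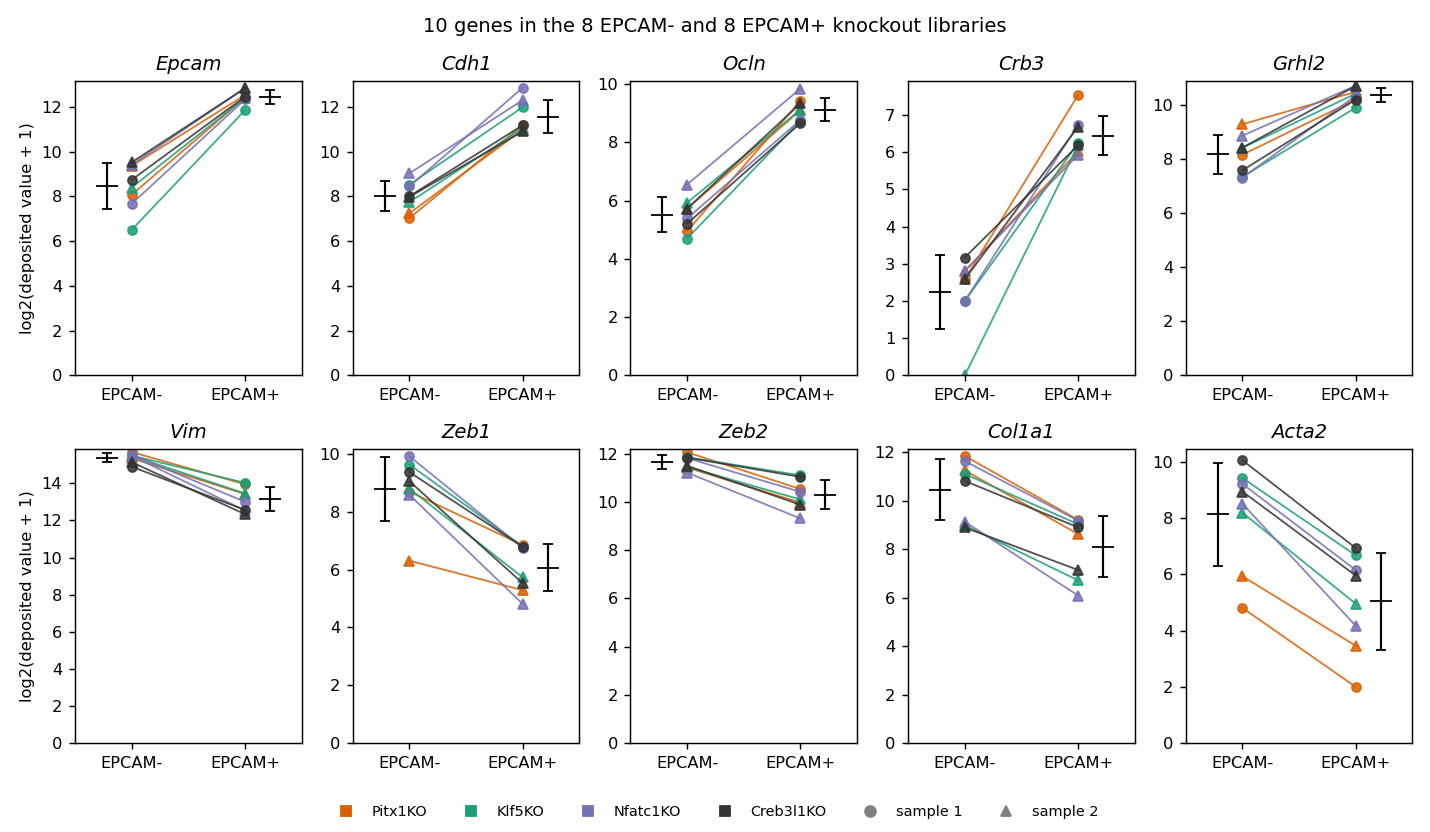
Deposited values of 10 genes on the log2(value + 1) scale in the EPCAM- libraries (left of each panel) and EPCAM+ libraries (right); a line joins the 2 libraries of a pair, colours are the knockout lines, and black bars are the mean and SD of 8 libraries. In all 8 pairs the EPCAM- value is the lower for Epcam, Cdh1, Ocln, Crb3 and Grhl2, and the higher for Vim, Zeb1, Zeb2, Col1a1 and Acta2.

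Across all genes, falls in EPCAM- cells held more of the largest changes and rises were more numerous. Of 19045 genes tested, 1840 rose in EPCAM- cells (9.66%) and 1471 fell (7.72%), at a limma adjusted p below 0.05 with the pair as a block. At 2-fold or more 446 rose (2.34%) and 367 fell (1.93%), at 4-fold or more 67 rose and 123 fell, and at 8-fold or more 10 rose and 42 fell. The 8 EPCAM- values lay wholly below the 8 EPCAM+ values for 168 genes (0.882%) and wholly above them for 32 (0.168%). All 8 pairs were higher in EPCAM- cells for 1065 genes (5.59%) and lower for 1074 (5.64%), and 1894 of the 3311 calls (17.4% of the genes tested) had 1 sign in 8 of 8 pairs. The balance of rises and falls depended on the scaling: with median-of-ratios factors 1438 genes rose and 1780 fell, so rises made up 44.7% of calls in place of 55.6%, and the median over all genes tested was 0.03 in place of 0.06 on the log2 scale. The sample1 pairs alone gave 459 rises and 694 falls, the sample2 pairs alone 1034 and 920, and a fit without the pair block 266 and 499. The fit without the pair block kept a block for each line and averaged a fraction effect per line.

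The 15 largest falls were led by Gpx2, a glutathione peroxidase of epithelia, with 0 to 8 units in EPCAM- libraries (median 4.0) against 48 to 319 in EPCAM+ libraries (median 152.5, log2 -5.05, SE 0.30, limma adjusted p = 1.70e-10). Where the EPCAM- values rest on a few reads, as here, the log2 value and the rank are approximate. Several genes of the cell surface and of vesicle traffic were among the 15 largest falls. Prom2, a glycoprotein of membrane protrusions, had 0 to 9 units in EPCAM- libraries and 41 to 258 in EPCAM+ libraries. Rab25, a small GTPase of apical recycling endosomes, had 0 to 36 units in EPCAM- against 167 to 532 in EPCAM+ libraries. Mal, a proteolipid of apical sorting, had 3 to 228 units in EPCAM- against 263 to 3585 in EPCAM+ libraries, and its relative Mal2 had 0 to 58 units in EPCAM- against 94 to 671 in EPCAM+ libraries. Atp8b1, a phospholipid flippase, had 0 to 11 units in EPCAM- against 41 to 160 in EPCAM+ libraries. No library of one fraction reached the range of the other for these 5 genes.

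The remaining large falls included the protease inhibitor Serpinb5 (maspin; log2 -3.88, SE 0.15), the microtubule-binding protein Map7 (log2 -3.78, SE 0.21), the carrier of fibroblast growth factors Fgfbp1 (log2 -3.70, SE 0.36), the tight junction protein Ocln and the transcription factor Ovol1, each at a limma adjusted p of 2.60e-07 or smaller. Of these, Fgfbp1 had ranges that met, with 0 to 15 units in EPCAM- libraries against 9 to 245 in EPCAM+ libraries. Klra8 and Klra9, lectin-like receptors known from natural killer cells, also ranked here, with 0 to 11 units in EPCAM- against 12 to 268 in EPCAM+ libraries and 0 to 9 units in EPCAM- against 9 to 133 in EPCAM+ libraries. They are close paralogs whose reads can be split between them, so each value is uncertain, and the leukocyte marker Ptprc was at 0 to 6 units in EPCAM- libraries and at 0 in every EPCAM+ library.

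The 15 largest rises included matrix, contractile and signalling genes. Fstl1, a secreted glycoprotein of mesenchymal cells, had 15 to 476 units in EPCAM- libraries (median 154.5), against 0 to 60 in EPCAM+ libraries (median 8.5); it rose by 3.64 on the log2 scale (SE 0.29, limma adjusted p = 2.15e-08). Pdgfrb, the platelet-derived growth factor receptor of pericytes and fibroblasts, had 21 to 265 units in EPCAM- against 0 to 18 in EPCAM+ libraries (log2 3.30, SE 0.37), and Gprin3, a G protein regulated inducer of neurite outgrowth, 13 to 198 units in EPCAM- against 0 to 9 in EPCAM+ libraries (log2 3.91, SE 0.35). The ranges of Pdgfrb and Gprin3 did not meet between the fractions, and those of Fstl1 did. Acta2, smooth muscle actin, had 27 to 1058 units in EPCAM- libraries and 3 to 121 in EPCAM+ libraries. Its ranges overlapped: the Pitx1KO line had 27 and 60 units in EPCAM- cells against 3 and 10 in EPCAM+ cells, below every other line in each fraction. The difference was nevertheless positive in 8 of 8 pairs, from 2.47 to 4.33 on the log2 scale.

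Col3a1, Col11a1 and Col1a1, fibrillar collagens, rose by 3.06, 2.78 and 2.34 on the log2 scale (limma adjusted p = 7.64e-07, 7.61e-09 and 2.17e-09). Wnt5a, a ligand of non-canonical Wnt signalling, rose by 2.84 (SE 0.26), and the atypical cadherin Fat4 by 2.41 (SE 0.28), with 30 to 124 units in EPCAM- libraries against 4 to 17 in EPCAM+ libraries. The others were the imprinted long non-coding RNA H19 (log2 3.18), the carboxylesterase Ces1g (3.37), the secreted protein C1qtnf3 (3.37), the complement protease Masp1 (2.33) and Fam198b (2.60), a Golgi membrane protein.

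**Figure D2:**
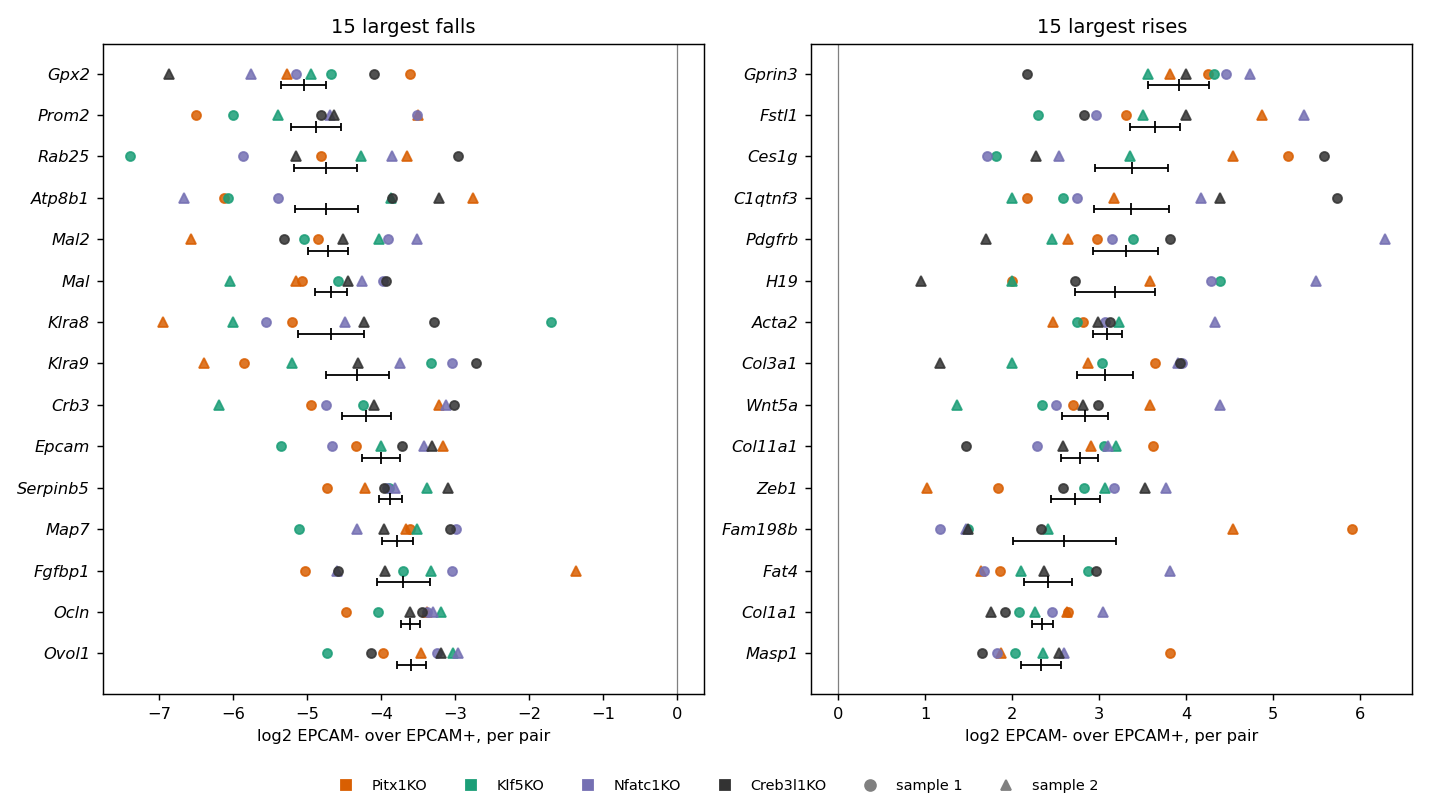
Log2 of EPCAM- over EPCAM+ in each of the 8 pairs for the 15 largest falls (left) and the 15 largest rises (right); colours are knockout lines, circles and triangles are sample 1 and sample 2, and black bars are the estimate of the fit with its SE. No pair crosses 0; the points of Ocln lie close together and those of Fam198b are split, with both Pitx1KO pairs to the right.

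Junction genes fell unevenly, from losses of more than 8-fold to differences that were not called. Of 28 adherens and tight junction genes tested, 18 fell and none rose, with a median log2 of -0.47, against 7.72% falls and a median of 0.06 over all genes tested. Ocln, occludin of the tight junction strand, had 25 to 93 units in EPCAM- libraries (median 46.5), against 404 to 922 in EPCAM+ libraries (median 553.5, log2 -3.60, SE 0.13, limma adjusted p = 1.34e-13). Its tricellular relative Marveld2 fell by 2.59 (SE 0.17), with 82 to 239 units in EPCAM- against 675 to 1038 in EPCAM+ libraries. The claudins Cldn4, Cldn7 and Cldn23 fell by 2.31, 2.24 and 2.22. Cldn4 had 910 to 2398 units in EPCAM- libraries against 5711 to 14800 in EPCAM+ libraries. There was no overlap between the fractions for 10 of the 28 genes, all lower in EPCAM- cells, against 0.882% of all genes tested. Of the 28 genes 10 were not called.

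Desmosomes, the junctions that anchor keratin filaments, were measured by 7 genes. Of these 6 fell (median log2 -1.55), against 7.72% of all genes tested. Dsp, the desmoplakin that links the plaque to keratin, had 277 to 1326 units in EPCAM- libraries (median 766.5), against 1471 to 5312 in EPCAM+ libraries (median 3164, log2 -2.02, SE 0.07, limma adjusted p = 1.33e-13). Those ranges did not meet, and neither did those of the plakophilin Pkp3 (57 to 299 units in EPCAM- against 727 to 1239 in EPCAM+ libraries) or of the cornified envelope protein Evpl (152 to 342 units in EPCAM- against 478 to 917 in EPCAM+ libraries). Ppl, periplakin, fell by 2.04 (SE 0.17) and Perp, a desmosomal membrane protein, by 1.55 (SE 0.26). The desmosomal cadherins were below the level filter and were not tested.

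Apical polarity and epithelial trafficking genes had the lowest median of all lists, -1.83 on the log2 scale. Of 22 genes 16 fell, none rose and 12 were lower without overlap. Among all genes tested 7.72% fell and 0.882% were lower without overlap. Crb3, the Crumbs protein that sets up the apical membrane, had 0 to 8 units in EPCAM- libraries (median 5.0), against 60 to 185 in EPCAM+ libraries (median 73.5, log2 -4.20, SE 0.33, limma adjusted p = 1.29e-08). The Crb3 values in EPCAM- libraries rest on a few reads, so its log2 value is approximate. Of the 8 genes of the Epcam and matriptase axis all 8 fell, Epcam itself being the sort marker. St14, the membrane protease matriptase, had 218 to 1164 units in EPCAM- against 2166 to 3724 in EPCAM+ libraries (log2 -2.91, SE 0.27), and its inhibitors Spint1 and Spint2 fell by 1.99 and 1.13.

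E-box letters in the promoters of genes that fell are shown because the Zeb and Snail factors, several of which rose, are known to bind the letters CACCTG, written CAGGTG where they lie on the opposite strand. The motif was searched on both strands in the 250 bases upstream of each RefSeq transcription start on GRCm38.p6; the reverse complement is the other spelling, so a match counts once. In the whole promoter table, 19.4% of 27025 genes had at least 1 match and 2.39% at least 2. RefSeq promoters were held for 11 of the 14 largest falls other than the sort marker, too few for a share over them. The windows were chosen for print after their matches were seen; a match is a description of letters, not a site in use. Capitals mark the motif, each window runs 5′ to 3′ in the gene's own direction, and its last base lies next to the transcription start. Crb3 is on the plus strand at chr17:57062081-57062200, inside the span that GENCODE gives the gene. Rab25 is on the minus strand at chr3:88548280-88548399, Ap1m2, an epithelial subunit of the AP-1 clathrin adaptor, on the minus strand at chr9:21312334-21312453, and Epcam on the plus strand at chr17:87635779-87635978.
Crb3: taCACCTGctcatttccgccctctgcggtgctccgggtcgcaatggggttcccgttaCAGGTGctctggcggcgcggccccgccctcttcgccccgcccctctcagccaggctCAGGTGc
Rab25: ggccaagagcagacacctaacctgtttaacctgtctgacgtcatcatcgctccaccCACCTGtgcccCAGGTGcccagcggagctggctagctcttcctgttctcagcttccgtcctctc
Ap1m2: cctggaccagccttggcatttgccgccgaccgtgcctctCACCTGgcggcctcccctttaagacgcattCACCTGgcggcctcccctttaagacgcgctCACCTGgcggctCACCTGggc
Epcam: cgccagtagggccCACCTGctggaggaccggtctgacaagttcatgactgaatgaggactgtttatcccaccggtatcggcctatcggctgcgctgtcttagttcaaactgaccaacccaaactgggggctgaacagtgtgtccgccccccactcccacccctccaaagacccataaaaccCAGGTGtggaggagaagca
The Crb3 window held 3 matches, the Rab25 window 2 that lie 11 bases apart, the Ap1m2 window 4, and the Epcam window 2. Ap1m2, named after its values were seen, fell by 3.48 on the log2 scale (SE 0.39, limma adjusted p = 2.70e-06), and Rab25 fell by 4.75, while Gpx2, Prom2 and Mal, also among the largest falls, had no match in the same window.

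Of 17 transcription and splicing regulators of epithelia 12 fell, 1 rose and 4 were not called, with a median log2 of -1.27. Without the pair block, and in the sample2 pairs alone, 8 fell and none rose. Among all genes tested 7.72% fell and 9.66% rose with the pair block. Ovol1 had 5 to 30 units in EPCAM- libraries (median 20.0), against 113 to 488 in EPCAM+ libraries (median 206.0, log2 -3.59, SE 0.20, limma adjusted p = 7.21e-11). Its relative Ovol2 had 0 to 3 units in EPCAM- against 15 to 73 in EPCAM+ libraries, too few reads in EPCAM- libraries for a ratio. Grhl2, a grainyhead factor that maintains Cdh1, had 157 to 621 units in EPCAM- against 950 to 1669 in EPCAM+ libraries (log2 -2.20, SE 0.17). Rbm47, an RNA-binding protein of splicing, fell by 2.05. All of these genes except Rbm47 had no overlap between the fractions.

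EMT transcription factors did not move as a block: of 18 tested, 6 rose, 3 fell and 9 were not called, with a median log2 of 0.14 (4 rose and 1 fell without the pair block). Over all genes tested 9.66% rose and 7.72% fell. Zeb1 had 78 to 960 units in EPCAM- libraries (median 485), against 27 to 114 in EPCAM+ libraries (median 79), and rose by 2.72 (SE 0.28, limma adjusted p = 1.00e-04). Zeb2 had 2374 to 4258 units in EPCAM- against 635 to 2194 in EPCAM+ libraries; it rose by 1.35 (SE 0.12, limma adjusted p = 7.35e-06) and its ranges did not meet. For Zeb1, sample 2 of the Pitx1KO line was the single EPCAM- library inside the EPCAM+ range, at 78 units, while its own EPCAM+ library had 38. Snai2 (Slug) rose by 1.38 (SE 0.12), with 232 to 648 units in EPCAM- against 73 to 312 in EPCAM+ libraries. Twist2 was at 0 to 14 units in EPCAM- against 0 to 3 in EPCAM+ libraries, and it lost its call without the second Klf5KO or Nfatc1KO pair (limma adjusted p = 0.0563 and 0.0595). Among the falls Sox9, a progenitor factor, had 1372 to 4362 units in EPCAM- libraries against 2415 to 5871 in EPCAM+ libraries and was lower in 8 of 8 pairs (log2 -0.71, SE 0.07). Snai3 fell by 2.27 at 0 to 8 units in EPCAM- against 6 to 33 in EPCAM+ libraries, which rests on a few reads.

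Of 4 simple keratins tested 3 fell and none rose (median log2 -0.80). The keratin and squamous counts stand beside 7.72% of all genes tested that fell and 9.66% that rose. The simple keratins Krt8 and Krt18, the filament pair of simple epithelia, differed by less than 2-fold: Krt8 had 9446 to 12802 units in EPCAM- libraries and 13190 to 18558 in EPCAM+ libraries (log2 -0.46, SE 0.04, limma adjusted p = 1.95e-07). Krt18 fell by 0.74 (SE 0.06), also without overlap. Of 15 basal keratin and hemidesmosome genes 8 fell and 1 rose (median log2 -0.82). Lama3, a chain of the basement membrane laminin of keratinocytes, fell by 2.70 (SE 0.21), with 318 to 3642 units in EPCAM- libraries against 3225 to 14151 in EPCAM+ libraries. Itgb4, the hemidesmosome integrin, fell by 1.69 (SE 0.12). The ranges of both genes overlapped between the fractions and each of the 8 pairs was negative. Krt5 had only 0 to 6 units in EPCAM- against 3 to 88 in EPCAM+ libraries. Of 12 squamous differentiation genes 6 fell (median log2 -1.06; 4 without the pair block and 3 in the sample1 pairs alone), led by Serpinb5 and by Lypd3, a surface protein of squamous epithelium, with 45 to 151 units in EPCAM- against 211 to 488 in EPCAM+ libraries (log2 -2.30, SE 0.13). Among these falls Krt13 lost its call whichever pair was left out, and Tgm1 lost its call without any 1 Creb3l1KO or Pitx1KO pair.

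Cytoskeletal genes of mesenchymal cells rose by small amounts with a few large exceptions. Of 22 tested, 16 rose and none fell (median log2 0.40, 9.66% rises over all genes); with median-of-ratios scaling the count was 14. Without the pair block 8 rose. Acta2 led in size. Fhl1, a LIM protein of muscle, had 35 to 242 units in EPCAM- libraries (median 107), against 5 to 41 in EPCAM+ libraries (median 21, log2 2.30, SE 0.26, limma adjusted p = 1.98e-06). Dpysl3, a regulator of growth cone actin and microtubules, rose by 1.59 (SE 0.15) and Nes, the intermediate filament nestin, by 0.89 (SE 0.14). Myl9, a light chain of smooth muscle myosin, rose by 2.25 (SE 0.41), with 0 to 80 units in EPCAM- against 0 to 27 in EPCAM+ libraries. It was at 0 and 6 units in the EPCAM- cells of the Pitx1KO line, which was also the lowest line for Acta2.

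Of 32 extracellular matrix genes 18 rose and none fell, where 9.66% of all genes tested rose. The median log2 was 0.80 (7 rose without the pair block). Col1a1, the main fibrillar collagen chain, had 474 to 3666 units in EPCAM- libraries (median 1992), against 67 to 589 in EPCAM+ libraries (median 434). Those ranges overlapped, sample 2 of the Klf5KO, Nfatc1KO and Creb3l1KO lines being low in both fractions, and the pair differences ran from 1.75 to 3.04 on the log2 scale. Col3a1 had 3 to 1098 units in EPCAM- against 0 to 87 in EPCAM+ libraries, and its sample 2 was below sample 1 in EPCAM- cells of every line. Postn, the matricellular protein periostin, rose by 2.56 (SE 0.38) with 8 to 107 units in EPCAM- against 0 to 15 in EPCAM+ libraries, and Col5a2 by 2.01 (SE 0.39) with 3 to 1296 units in EPCAM- against 0 to 143 in EPCAM+ libraries. The summed value of 11 fibroblast markers was 638 to 4964 units in EPCAM- libraries and 154 to 882 in EPCAM+ libraries, and 2 of the 5 tested rose, Col1a1 and Col3a1, which stand in both lists; the part of such cells in the matrix result was not tested. Pdgfra, also in the fibroblast list, had 62 to 398 units in EPCAM- libraries and 73 to 282 in EPCAM+ libraries and was not called. Lum and Dpt were at 0 in all 16 libraries. Dcn had 0 to 8 units in EPCAM- libraries and 0 to 3 in EPCAM+ libraries, and Thy1 0 to 3 in each. Of 14 leukocyte markers, all but Csf1r and Cd68 were under 50 units in all 16 libraries, and of 10 endothelial markers 8 were. The leukocyte sums were 151 to 294 units in EPCAM- libraries and 176 to 375 in EPCAM+ libraries, most of it Csf1r and Cd68. Csf1r fell by 0.69. The endothelial sums were 74 to 436 units in EPCAM- libraries and 79 to 212 in EPCAM+ libraries, with Erg at 0 throughout. Pecam1 had 53 to 157 units in EPCAM- libraries and 61 to 149 in EPCAM+ libraries. Kdr had 0 to 269 units in EPCAM- libraries and 0 to 122 in EPCAM+ libraries. Of 9 melanocyte and muscle markers 4 were at 0 in all 16 libraries, and Acta1, skeletal actin, rose by 0.78 (SE 0.23), a call lost without any 1 of 3 pairs (limma adjusted p up to 0.0671).

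Surface markers that have been used to grade EMT states changed in both directions, 8 rising and 6 falling of 21 (median log2 0.20; 4 and 3 without the pair block). Over all genes tested 9.66% rose and 7.72% fell. Itgb6, the epithelial integrin subunit that activates latent TGF-beta, had 25 to 80 units in EPCAM- libraries (median 40.5), against 303 to 1218 in EPCAM+ libraries (median 460.5, log2 -3.51, SE 0.20, limma adjusted p = 7.91e-09). L1cam, a neural adhesion molecule also found on carcinoma cells, fell by 1.78 (SE 0.17), with 52 to 300 units in EPCAM- against 420 to 919 in EPCAM+ libraries. Cdh2, N-cadherin, rose by 0.87 (SE 0.10) in 8 of 8 pairs, although its level ran over the lines from 158 and 316 units in EPCAM- cells of the Creb3l1KO line, against 79 and 197 in its EPCAM+ cells, to 1969 to 4150 in EPCAM- cells against 804 to 2770 in EPCAM+ cells of the other lines. Ncam1, another neural adhesion molecule, rose by 0.88 (SE 0.06). The Cdh1 difference was larger in size than the Cdh2 difference in each of the 8 pairs.

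Signalling genes were called in both directions, where 9.66% of all genes tested rose and 7.72% fell. Erbb3, the kinase-impaired partner receptor of the ErbB family, had 62 to 129 units in EPCAM- libraries (median 75.5), against 612 to 1282 in EPCAM+ libraries (median 1026), and fell by 3.49 (SE 0.13, limma adjusted p = 8.00e-13). The ligand Tgfa fell by 1.16 (SE 0.07) without overlap, and the other called genes of the 10 were Erbb2 (log2 -0.39) and the ligand Nrg1 (log2 0.48). Of 25 TGF-beta pathway genes 9 rose and 1 fell (median log2 0.11; 1 and 1 without the pair block), led by Bmp4 (log2 1.64, SE 0.40, 5 to 85 units in EPCAM- against 0 to 29 in EPCAM+ libraries), the co-receptor Tgfbr3 (1.29) and the ligand Tgfb2 (1.08). Of 16 Wnt genes 5 rose and 6 fell (2 and 2 without the pair block): the ligands Wnt7a, Wnt10a and Wnt7b fell by 1.87, 1.01 and 0.90, while Wnt5a rose. Wnt7a had 13 to 742 units in EPCAM- libraries and 137 to 1648 in EPCAM+ libraries, lowest in both fractions of the Klf5KO line. Of 12 Notch genes 5 fell (1 without the pair block) and none rose, among them the receptor Notch1, with 277 to 990 units in EPCAM- against 848 to 2320 in EPCAM+ libraries (log2 -1.43, SE 0.08, limma adjusted p = 9.16e-11).

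Secreted factors and proteases showed exchanges of single members rather than a common direction. The counts below stand beside 9.66% of all genes tested that rose and 7.72% that fell. Cxcl12, the chemokine that binds Cxcr4, rose by 1.29 (SE 0.14), with 1353 to 2858 units in EPCAM- libraries against 419 to 1973 in EPCAM+ libraries. Csf1, the macrophage growth factor, had 7400 to 14258 units in EPCAM- against 2565 to 8558 in EPCAM+ libraries and rose by 0.85 (SE 0.12), while Csf3, the granulocyte growth factor, fell by 1.00 (SE 0.12) and the transmembrane chemokine Cxcl16 by 0.83 (SE 0.10). Of 17 such genes 4 rose and 3 fell (3 and 1 without the pair block). Ccl2, a monocyte chemokine, rose by 1.82 (SE 0.46), but its limma adjusted p was 0.0328 and lay between 0.0528 and 0.0756 with any 1 of 6 pairs left out. Of 21 matrix proteases and inhibitors 8 rose and 2 fell (2 and 0 without the pair block). Plau, the plasminogen activator urokinase, fell by 1.11 (SE 0.20). Axon guidance genes, a family that also acts in cell migration, counted 5 rises and 4 falls of 19 (1 and 0 without the pair block), with the receptors Plxnd1 (log2 1.39) and Nrp1 (log2 1.07) at the top.

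Metabolic and cell cycle genes moved by little, and mostly downward, where 9.66% of all genes tested rose and 7.72% fell. All 22 cholesterol synthesis genes tested had a negative log2 value and 13 fell (4 without the pair block), the median being -0.31. Cyp51, lanosterol demethylase, had 2344 to 6392 units in EPCAM- libraries and 3324 to 8798 in EPCAM+ libraries; the ranges overlapped while the 8 pair differences lay between -0.61 and -0.40 on the log2 scale (limma adjusted p = 1.44e-07). Msmo1, a later enzyme of the pathway, fell by 0.56. Of 20 G2 and mitosis genes 8 fell and none rose (median log2 -0.17), and of 20 S phase genes 4 fell and 1 rose (median -0.10). Ccnb1, cyclin B1, fell by 0.32 (SE 0.05), with 2057 to 3900 units in EPCAM- against 2300 to 4568 in EPCAM+ libraries. The S phase falls numbered 7 with median-of-ratios scaling, where none rose, 1 in the sample1 pairs alone, 0 in the sample2 pairs alone and 0 without the pair block. The mitotic count was 11 with median-of-ratios scaling, 1 in the sample1 pairs alone, 6 in the sample2 pairs alone and 0 without the pair block. For the mitotic kinase Aurkb sample 2 was higher than sample 1 in each line and fraction.

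Stress and metabolic programmes were read against 17.4% of all genes tested called in either direction. Of 22 hypoxia and glycolysis genes 4 rose and 1 fell, the largest being the HIF prolyl hydroxylase Egln3 (log2 1.27, SE 0.25). With median-of-ratios scaling 2 rose and 2 fell, and without the pair block 1 rose. Interferon and antigen presentation genes had 2 rises of 20, Ifit2 (log2 1.27, SE 0.18) and Tap2, whose call was lost without the first Creb3l1KO or second Klf5KO pair (limma adjusted p = 0.0587 and 0.0643). Unfolded protein and secretory genes had 1 rise and 1 fall of 20, and immediate early genes 3 rises and 1 fall of 18. Without the pair block none of the interferon, unfolded protein and immediate early genes was called, and 1 NRF2 gene fell. NRF2 and glutathione genes had 2 rises and 5 falls of 20, with Gpx2 among the falls; the next in size were the cystine transporter Slc7a11 (log2 -0.55) and glutathione reductase Gsr (log2 -0.41).

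**Figure D3:**
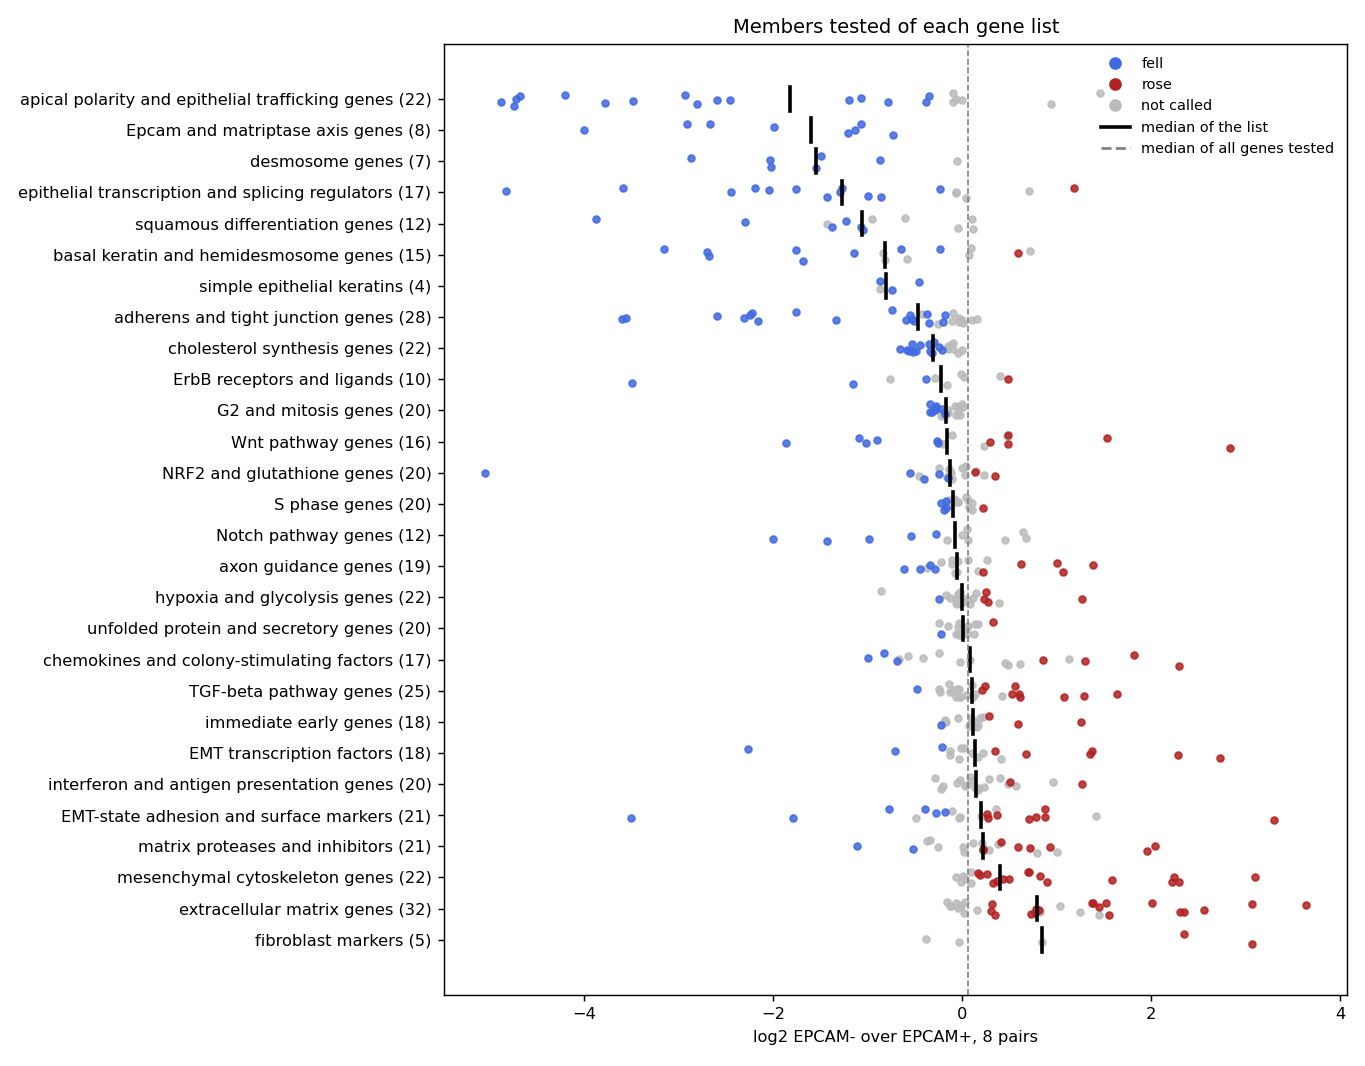
Log2 of EPCAM- over EPCAM+ over 8 pairs for the tested members of each list (number in brackets); each dot is a gene, blue fell, red rose, grey was not called, black bars are list medians and the dashed line is the median of all genes tested, 0.06. Junction, polarity and epithelial regulator lists reach below -3, matrix and cytoskeleton lists reach above 2, and most genes of the cell cycle and stress lists lie near the dashed line.

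The second question was whether the fraction difference was the same in the 4 knockout lines. It was called different for 14 of 19045 genes (0.0735%) by limma's F-test over the lines, with 1206 genes at an unadjusted p below 0.05. A missed threshold does not show that the lines were alike. The difference of each line was read from 1 fit of all 16 libraries with a fraction effect per line. That fit shared its variance over the lines, each with 2 pairs, and left 4 residual degrees of freedom. The counts of the 4 lines are therefore not independent tests. They were 470 rises and 546 falls in Pitx1KO (2.47% and 2.87%) and 140 and 359 in Klf5KO (0.735% and 1.89%). In Nfatc1KO they were 755 and 527 (3.96% and 2.77%), and in Creb3l1KO 235 and 438 (1.23% and 2.30%). Called in each of the 4 lines in that fit were 61 rises and 202 falls. The correlation of pair differences across 12547 genes, which are not independent replicates, ran from 0.474 to 0.716 over 28 combinations of pairs, and between the 2 pairs of a line from 0.512 to 0.665.

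Ankrd1, a muscle ankyrin repeat protein and a target of YAP in mechanical signalling, had the smallest p of these 14. In the Pitx1KO line it had 961 and 2006 units in EPCAM- cells against 292 and 760 in EPCAM+ cells (log2 1.56), and in the Nfatc1KO line 2415 and 1600 in EPCAM- cells against 3200 and 2290 in EPCAM+ cells (log2 -0.46); the limma adjusted p of the line difference was 0.000125. The Klf5KO and Creb3l1KO lines lay between, at 0.35 and 0.18. Mtss1, an actin-binding protein that bends membranes, was likewise split by sign (limma adjusted p = 0.00180). Its log2 difference was -1.03, -1.10, 0.61 and -0.37 in the Pitx1KO, Klf5KO, Nfatc1KO and Creb3l1KO lines. Pcdh19, a protocadherin, differed little in Pitx1KO and Klf5KO cells (log2 -0.07 and 0.06) and was higher in EPCAM- cells of Nfatc1KO and Creb3l1KO (1.58 and 1.26, adjusted p = 0.00180). Its EPCAM- cells had 2219 to 3116 units in the Pitx1KO line, against 1908 to 3975 in EPCAM+ cells of that line, above the 182 to 1111 units of the other 12 libraries.

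Several of the 14 differed in size only, and 9 of them kept the same sign in all 4 lines. Fam198b had a log2 difference of 5.22 in the Pitx1KO line, where EPCAM- cells had 59 and 138 units and EPCAM+ cells 0 and 5, and of 1.31 to 1.95 in the other lines (adjusted p = 0.00180). Perp differed by -2.66 in Pitx1KO, -1.59 in Klf5KO, -1.01 in Nfatc1KO and -0.92 in Creb3l1KO cells (adjusted p = 0.00185). Ctsh, the lysosomal protease cathepsin H, differed by -2.04 in Pitx1KO cells, with 86 and 86 units in EPCAM- cells against 459 and 277 in EPCAM+ cells, and by -0.44 to -0.22 elsewhere (adjusted p = 0.0100). Plau differed by -1.98 in Nfatc1KO cells and by -0.98 to -0.71 elsewhere (adjusted p = 0.0100). Csf1 differed by 1.44 in Pitx1KO cells and by 0.50 to 0.78 elsewhere (adjusted p = 0.0224). Named after their values were seen were also Adgrl3, Itga6, F2rl1, Gxylt2 and Acan, at adjusted p = 0.0286 to 0.0456. The count rests on few pairs: it was 6 to 37 with 1 pair left out, 0 without the pair block, and 0 without the variance trend and robust prior.

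**Figure D4:**
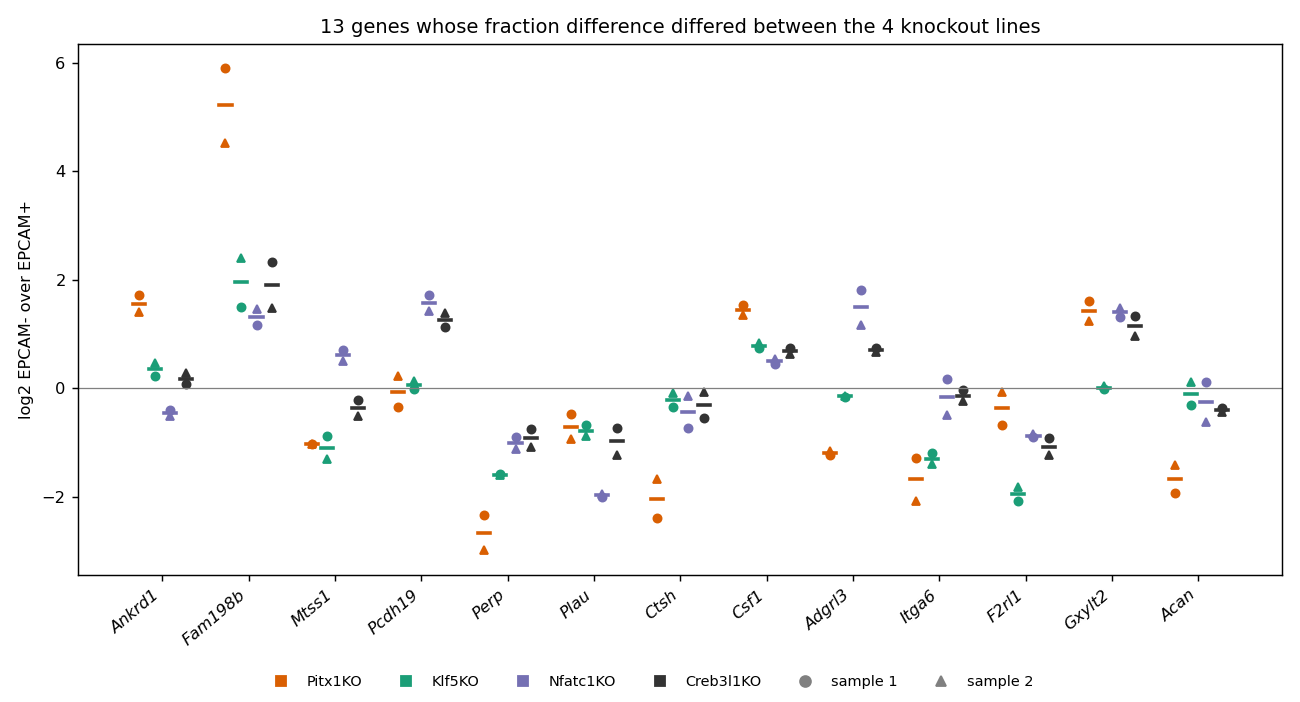
Log2 of EPCAM- over EPCAM+ in each pair (circles sample 1, triangles sample 2) and its mean in each knockout line (bars) for 13 of the 14 genes called different between lines, ordered by adjusted p. The Pitx1KO line stands apart for Ankrd1, Fam198b, Perp, Ctsh, Csf1 and Acan.

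The third comparison set the fraction difference of the knockout lines against that of the control line, which carries no knockout. No gene of 19396 was called (0%) by limma on the difference itself, with 1229 at an unadjusted p below 0.05, where 969.8 would be 5% of the genes, and a smallest adjusted p of 0.358; voom on recovered reads called 1 gene. The control line had 2 pairs, the median SE of the difference was 0.28 on the log2 scale, and without the second control pair 91 genes were called, so the count rests on that pair. Of the 813 genes called at 2-fold or more over the knockout lines, 768 had the same sign in the control line. These genes were picked for their size, and no share over all genes tested stands beside that count. Cdh1 differed by -3.56 in the knockout lines and by -3.76 in the control line (251 and 156 units in control EPCAM- cells against 2903 and 2512 in control EPCAM+ cells), and the difference between them was 0.21 (SE 0.35). Vim differed by 2.22 in the knockout lines and 2.55 in the control line, where EPCAM- cells had 67534 and 49071 units and EPCAM+ cells 9875 and 9745 (difference -0.33, SE 0.38). Zeb1 differed by 2.72 in the knockout lines and 3.90 in the control line, and the knockout minus control difference of -1.18 had an SE of 0.62 and was not called (adjusted p = 0.82). H19 differed by 3.18 in the knockout lines and 1.32 in the control line (difference 1.86, SE 1.07). For Zeb1 and H19 an interval of about 2 SE on either side holds both 0 and differences of more than 2-fold, so these values do not tell between them.

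**Figure D5:**
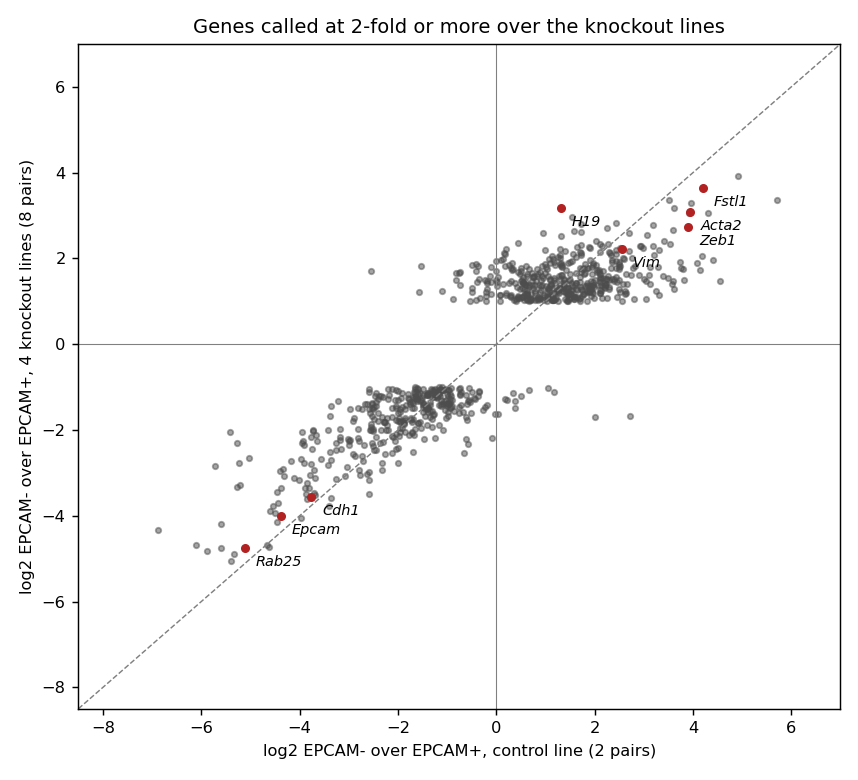
Log2 of EPCAM- over EPCAM+ in the control line (x axis, 2 pairs) and over the 4 knockout lines (y axis, 8 pairs) for the 813 genes called at 2-fold or more over the knockout lines; the dashed line marks equal values and 8 genes are named in red. The band without points between -1 and 1 on the y axis is the 2-fold limit, and 768 genes lie in the lower left and upper right corners.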

How the data were processed

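RNA was measured by bulk RNA-seq (Ovation Solo libraries, paired-end) in sorted cells. The submitters' processing notes name FastQC, Trimmomatic, STAR, Picard, HTSeq and GRCm38/mm10, without versions. The table of 22 libraries held no column of other samples. The deposited values were taken as a score: the authors' normalised counts, which fall on whole multiples of a step per library, rounded up, with deposited totals of 20007331 to 20014236. They were not scaled again. As recovered reads are rounded, edgeR was not used, nor TMM factors; voom ran on recovered reads with library totals.

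The level filter was 10 units in 2 or more of the 16 libraries, and genes past it were tested with limma 3.58.1 (R 4.3.3) on log2(value + 1), which understates changes of low genes, with variance trend, robust prior, the pair as a block (7 residual degrees of freedom) and Benjamini-Hochberg adjustment; a call is an adjusted p below 0.05. Rose and fell are EPCAM- relative to EPCAM+. Line differences used an F-test, control differences 20 libraries. Simulated data had 1 spread for all genes (dispersion 0.02) and the same fold in every pair, with changed genes at a mean of 50 units or more. There all 100 genes changed 2-fold and all 100 changed 4-fold were called among 18830, along with 8 unchanged genes. Lower genes and changes that vary between pairs were not simulated, so these shares do not apply to them.

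The sample number is a batch tag in the labels. Libraries were paired by line and sample number. Replicate differences correlated between the fractions of a line at 0.536 to 0.784, over the limit of 0.1 in all 4 lines. Between lines the values were 0.095 to 0.638, and all but the lowest were over 0.1 too. The Creb3l1KO EPCAM- deviations correlated more with Nfatc1KO EPCAM+ (0.595) than with their own line (0.536). The limit of 0.1 therefore cannot tell a pair from a sample number effect that all lines share. With a block of the sample number shared by all lines 1697 genes were called, in place of 3311.

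Genes named are the markers and targets, the 15 largest rises and falls at a mean of 50 units or more with 1 sign in 8 pairs, up to 6 called members of each list and up to 8 line differences; others are said to be chosen later. Some genes that the rule selects are not reported here. Members and lists were chosen with earlier results of these data known. IDs matched GENCODE M21 for 99.5% of 49671 genes. Tables were made in Python 3.11.15 with pandas 2.3.3 and figures with matplotlib 3.10.9.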

Additional observations from a re-analysis of the deposited data

Results flagged for a closer look

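In 9 of 165 named genes 1 of the 8 pairs lay apart from the rest by Dixon's test at 95% (log2 of EPCAM- over EPCAM+); chance flags about 5 percent of groups, so this count is near what chance gives. The high pairs were Pdgfrb in Nfatc1KO pair 2 (6.29, next 3.81), Acta2 in Nfatc1KO pair 2 (4.33, next 3.23), Masp1 in Pitx1KO pair 1 (3.81, next 2.59), Ccl2 in Pitx1KO pair 1 (4.89, next 2.36) and Ppl in Pitx1KO pair 1 (-0.79, next -1.82). The low pairs were Gprin3 in Creb3l1KO pair 1 (2.17, next 3.56), Krt13, a keratin of squamous epithelium, in Pitx1KO pair 1 (-1.87, next -1.19), Aurkb in Creb3l1KO pair 1 (-0.68, next -0.36) and Gsr in Pitx1KO pair 1 (-0.71, next -0.48). The first Pitx1KO pair was the pair concerned for 5 of these 9 genes.

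The fraction difference depended on the knockout line for 14 genes by limma's F-test, of which 13 are given. The adjusted p was 0.000125 for Ankrd1, 0.00180 for Mtss1, for Pcdh19 and for Fam198b, 0.00185 for Perp, 0.0100 for Ctsh and for Plau, and 0.0224 for Csf1. It was 0.0286 for the adhesion receptor Adgrl3, 0.0323 for the integrin Itga6, 0.0397 for the protease-activated receptor F2rl1, 0.0398 for the xylosyltransferase Gxylt2, and 0.0456 for the proteoglycan Acan. For Adgrl3 the Pitx1KO and Klf5KO lines gave -1.19 and -0.14 on the log2 scale and the Creb3l1KO line 0.71.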

How the results depend on the processing

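The pooled count of 3311 calls stayed within 1.5 times under other pseudocounts, filters, median-of-ratios scaling, voom and the added control libraries (3024 to 3517). Without the replicate block 765 genes were called (266 rose, 499 fell), 763 of them also in the blocked fit, and with a block of the replicate number shared by all lines 1697 (827 and 870). The sample1 pairs alone gave 1153 calls (459 and 694) and the sample2 pairs alone 1954 (1034 and 920). Rises numbered 1148 without variance trend and robust prior and 1046 without the Nfatc1KO line. With 1 pair left out the calls ranged from 2672 to 3082. The 14 line differences became 22 with pseudocount 10 or voom, 4 with pseudocount 0.1, 91 without a filter, 0 without the block or without the trend, and 6 to 37 with 1 pair left out (6 without Klf5KO replicate 1, 37 without Nfatc1KO replicate 2). The 0 knockout against control calls became 2 with pseudocount 10, 2 without the trend, 1 with voom, and 0 to 91 with 1 pair left out. The cause of these moves was not tested.

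Of 155 called named genes, 135 stayed called whichever pair was left out. Signs turned in 4 uncalled genes: Pitx1 was -0.011 without Creb3l1KO replicate 1 (up to 0.085 with another pair left out) and -0.017 in the sample2 pairs, Klf5 was 0.031 in the sample1 pairs, and Nfatc1 was -0.042 in the sample2 pairs. Adgrl3 ran from -0.010 to 0.42 with 1 pair left out and was -0.21 without the Nfatc1KO line. Depth limits genes near 10 units, where 1 read is 2.02 or more units. The planned edgeR fit and TMM factors were not run, as the deposited values are not counts.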
